A study of Homo sapiens with 21 samples.

Results

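Crizotinib-resistant line 2 growing in 1 µM crizotinib was set against the control line given 1 µM crizotinib for the same 72 h. Both are cultures of Hs746T, an established human gastric carcinoma line known for an amplified MET gene. The comparison holds 6 of the series' 21 arrays, 3 per group, and the arrays were chosen by sample title. Line 2 had been selected by stepwise dose increase until it grew in 1 µM crizotinib, whereas the control line had been carried in DMSO for as long and met the drug only in the final 72 h. Reference was also made to the control line after 72 h in 0.1% DMSO and to a separately selected crizotinib-resistant line, line 1, on the same drug, with 3 arrays each. All of these cultures share the parental line and the medium, and each resistant line was derived once, so that effects of resistance and of 1 selected population cannot be told apart. No resistant culture without drug was analysed here. The labels call the 3 arrays of a group biological replicates of 1 line. The p-values rest on the spread between cultures within a group, pooled over the 7 groups of the series. They do not measure spread between separately selected lines. For the crizotinib-resistant samples the source field names cabozantinib, while the title, the resistance entry and the treatment entry name crizotinib, and the title was followed.

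Crizotinib blocks the kinase activity of MET, the receptor for hepatocyte growth factor, and also of ALK and ROS1. MET signals through adaptors to RAS, RAF, MEK and ERK and to PI3K and AKT. ERK activity raises the transcription of its own inhibitors, the DUSP phosphatases and the Sprouty and SPRED proteins, and of cyclin D1, which releases E2F factors and lets cells enter DNA synthesis. In lines that depend on MET, inhibitors are known to lower ERK targets and halt the cell cycle, and resistant populations are known to regain division through changes in MET, through other receptor kinases or through downstream pathway members.

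Levels are log2 values after robust multi-array averaging (RMA), a procedure that corrects background, normalizes arrays and summarises probes, and differences are log2 differences. Each of 34235 probe sets was tested with limma, fitted on all 21 arrays, and a probe set was called at a Benjamini-Hochberg adjusted p below 0.05. Of these, 4970 (14.5%) were called between line 2 and the control line on crizotinib, 2708 higher and 2262 lower in line 2, and 707 of the former and 417 of the latter differed by at least 2-fold. Among the 18260 genes that could be named, 12.1% were called higher and 8.83% lower, 20.7% were called with every line 2 array outside the range of the control arrays, and the median difference was -0.01. Calls came mainly from bright genes, 47.8% of the brightest 25% of named genes against 2.52% of the dimmest 25%, so a count within a list of well-expressed genes reads against a higher background. The array medians lay between 2.84 and 2.91, and levels near them are not shown to be above background, because no detection values were used. Named genes were almost all from chromosomes 1 to 4 and 10 to 22. MET, HGF, EGFR, ERBB2, GAB1, BRAF, MYC and ABCB1 were not analysed here.

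Markers of other cell types were not called. None of 5 leukocyte, 2 endothelial, 4 gastric gland and 4 skeletal muscle markers was called in line 2 against the control line on crizotinib. The summed log2 levels overlapped for leukocyte markers (11.50 to 12.24 in line 2, 11.96 to 12.93 in the control line), endothelial markers (5.42 to 5.87 and 4.72 to 6.0), gastric gland markers (10.94 to 12.02 and 11.13 to 11.41) and muscle markers (11.52 to 13.23 and 12.14 to 12.63). Of 4 mesenchymal markers, CDH2, ZEB1 and FN1 were called higher and VIM was not called, with summed levels of 31.4 to 31.8 against 30.7 on all 3 control arrays. All 3 calls were lost when the 6 arrays were fitted alone (adjusted p = 0.0669 for CDH2, 0.19 for ZEB1 and 0.19 for FN1). Of 5 epithelial markers only KRT18 was called, lower in line 2 (adjusted p = 0.0575 with the 6 arrays alone), and the sums were 20.2 to 21 against 21.3 to 22.3. The gastric mucins and secreted gland proteins, which define normal gastric mucosa, had levels near the array medians in both groups, as had the epithelial adhesion gene CDH1 (3.62 ± 0.41 in line 2 and 3.18 ± 0.55 in the control line, SD, n = 3, difference 0.44, limma adjusted p = 0.25).

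Genes of cell division formed the set with the highest share of calls. All 20 measured genes of mitosis and the G2/M transition were higher in line 2, with a median difference of 2.59, against 12.1% of all named genes called higher and a median of -0.01. MKI67, a nuclear protein present in dividing cells, stood at 8.24, 8.17 and 7.76 on the line 2 arrays and at 4.32, 6.23 and 4.72 on the control arrays. The groups did not overlap, and the difference was 2.96 (SE 0.37, adjusted p = 1.5e-05). PLK1, the kinase that drives mitotic entry, stood at 8.10, 8.10 and 7.67 in line 2 and at 4.95, 5.74 and 4.29 in the control line, a 7.79-fold difference. AURKB, the kinase of the chromosomal passenger complex, had the largest difference of the list, 3.47 (SE 0.36, adjusted p = 2.2e-06), with 9.77, 9.80 and 9.53 against 5.56, 7.33 and 5.80. The smallest belonged to CENPA, the histone H3 variant of centromeres, at 0.63 (SE 0.17), and it kept its call in 3 of the 6 fits that left out 1 array. Kinetochore and spindle checkpoint genes lay high in the list, with 3.03 for NDC80, 3.18 for BUB1 and 3.34 for the spindle protein DLGAP5. SKA1 and SPC25, kinetochore genes outside the list, differed by 3.64 (SE 0.32) and 3.49 (SE 0.34). FOXM1, the transcription factor of the G2/M programme, was looked up after the list had been seen and differed by 2.74 (SE 0.28, adjusted p = 1.3e-06).

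One control array stood apart on these genes. The median level of the mitosis list was 4.33, 5.64 and 4.31 on control replicates 1, 2 and 3 on crizotinib, and replicate 2 was the highest of the 3 for 19 of 20 members. On the line 2 arrays the same median was 7.61, 7.58 and 7.27, so every line 2 array lay above that control array. Without control replicate 2 the median difference was 2.99 with 19 of 20 called, and without control replicate 1 or 3 it was 2.41 and 2.33 with all 20 called. Fitted alone, the 6 arrays gave 19 calls.

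Promoters of these genes were read from RefSeq (GRCh38.p14) because the members moved together. In each window, 250 bases before to 50 after a gene's start, both strands were searched for TTTGAA, the core of the cell-cycle homology region of late cell-cycle promoters, TTTNNCGC, an E2F-type site, and CCAAT, the box bound by NF-Y. Entries were found for 17 of 20 mitosis genes, and 15 of those 17 held TTTGAA, against 15.4% of 27305 promoters of all genes. None of 22 G1/S promoters and 3 of 21 DNA repair promoters held it. TTTNNCGC was found in 12 of 22 G1/S, 8 of 21 repair and 2 of 17 mitosis promoters, against 6.90% of all promoters. CCAAT was found in 15 of 17 mitosis, 12 of 21 repair and 10 of 22 G1/S promoters, and in 9 of 14 promoters of the cholesterol and fatty acid list described below, against 35.7% of all. No stretch can match TTTGAA and TTTNNCGC from the same first base, and a match describes the sequence without showing binding. The windows around the matches are printed 5′ to 3′ on each gene's strand for 3 mitosis genes with TTTGAA and for the replication gene GINS2 with TTTNNCGC, with the match in capitals, also where it lies on the opposite strand (TTCAAA in CDC20, GCGGGAAA in GINS2).
MKI67 promoter, chr10:128126391-128126510, minus strand: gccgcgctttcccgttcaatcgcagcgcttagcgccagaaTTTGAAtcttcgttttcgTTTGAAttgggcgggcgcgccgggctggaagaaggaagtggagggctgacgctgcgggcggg
PLK1 promoter, chr16:23678819-23678938, plus strand: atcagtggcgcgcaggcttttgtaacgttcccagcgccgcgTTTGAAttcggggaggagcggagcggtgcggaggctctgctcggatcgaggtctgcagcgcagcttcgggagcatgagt
CDC20 promoter, chr1:43358763-43358921, plus strand: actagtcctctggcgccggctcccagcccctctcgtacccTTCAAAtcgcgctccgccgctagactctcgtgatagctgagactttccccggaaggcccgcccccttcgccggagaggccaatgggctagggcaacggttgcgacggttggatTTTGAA
GINS2 promoter, chr16:85688906-85689025, minus strand: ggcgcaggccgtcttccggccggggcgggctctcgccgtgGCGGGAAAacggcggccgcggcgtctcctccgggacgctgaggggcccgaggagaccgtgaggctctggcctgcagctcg

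Genes of S-phase entry and DNA replication were also mostly higher in line 2. Of 27 measured, 21 were called higher and 1 lower, with a median difference of 0.99. GINS2, a subunit of the replicative helicase whose promoter is printed above, stood at 6.97, 6.95 and 6.65 in line 2 and at 3.22, 3.83 and 3.13 in the control line. It differed by 3.46 (SE 0.18, adjusted p = 8.3e-10), and its level in line 2 was close to that in DMSO (6.88 ± 0.07, difference -0.02, adjusted p = 0.97, which does not show equality). TK1 and TYMS, enzymes of thymidine nucleotide supply, differed by 3.39 (SE 0.39) and 2.66 (SE 0.26), and CDC6, which loads the helicase, by 2.25 (SE 0.18). CCND1, encoding cyclin D1, stood at 8.55, 8.51 and 8.41 against 6.67, 7.03 and 6.76, a difference of 1.67 (SE 0.10, adjusted p = 7.1e-09). The 1 gene called lower was CDKN1B, the p27 inhibitor of cyclin-dependent kinases, at -0.43. CDK4 (-0.01) and CCNE1 (0.07) were not called.

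Of 24 genes of DNA repair and the replication checkpoint, 16 were called higher and 1 lower, with a median of 1.26. FANCA, of the Fanconi anaemia core complex, stood at 7.30, 7.25 and 7.13 in line 2 and at 4.60, 4.67 and 4.40 in the control line, a difference of 2.68 (SE 0.11, adjusted p = 5.8e-11). The groups were far apart and the control arrays close together, replicate 2 included. CLSPN, the adaptor for CHK1 activation, BRCA2 and the helicase BRIP1 differed by 2.67, 2.15 and 2.00. ATM, the kinase activated by double-strand breaks, was the member called lower (-0.47), and the mismatch repair gene MSH6 (0.05) was not called. Control replicate 2 was the highest control array for 19 of 27 G1/S and 17 of 24 repair genes. Without it the medians were 0.93 and 1.42, with 21 higher and 1 lower of the G1/S genes and 16 higher and 1 lower of the repair genes.

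Against the control line in DMSO, most of the same genes in line 2 were lower or not called. Of the 20 mitosis genes 11 were called lower and none higher, with a median of -0.97. Of the G1/S genes 18 were called lower and 2 higher, against backgrounds of 12.4% lower and 11.4% higher. Of the 24 repair genes 21 were called lower and none higher, with a median of -0.96. All 20 mitosis genes had been called lower in the control line after 72 h of crizotinib, with a median of -3.48, against a background of 13.2% lower and 10.0% higher. These comparisons share the control arrays on crizotinib, or the line 2 arrays, with the main comparison and are given side by side. MKI67 stood at 9.22, 9.24 and 9.18 in DMSO, so that line 2 (8.05 ± 0.26) lay between DMSO and the treated control line (5.09 ± 1.00). In line 1 the median of the mitosis list was 8.08, 8.32 and 8.07. Of the 20 genes, 6 were called lower in line 2 than in line 1 and none higher (8.15% and 8.73% of named genes). Of the 27 G1/S genes 12 were lower than in line 1 and 1 higher, and of the 24 repair genes 11 and none. In bulk RNA, fewer dividing cells and less of each transcript per cell cannot be told apart.

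**Figure D1:**
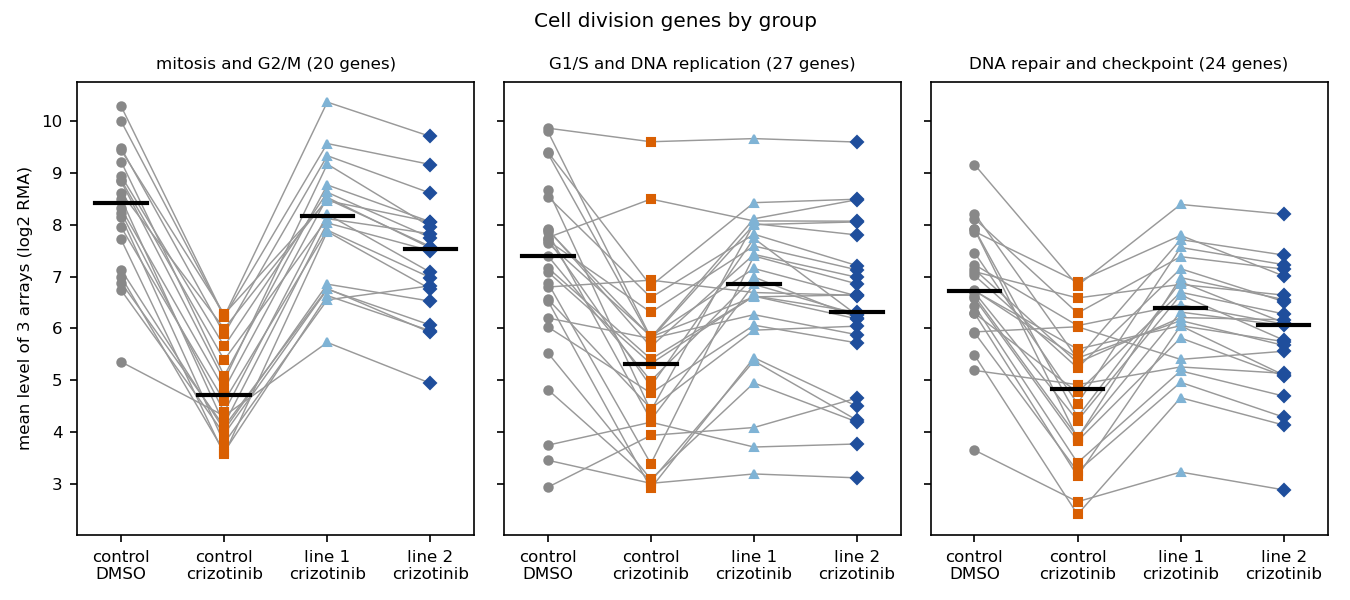
Mean log2 RMA level (y axis) of each gene of 3 lists over the 3 arrays of the control line in DMSO, the control line on crizotinib and resistant lines 1 and 2 on crizotinib (x axis); lines join a gene across groups and black bars are medians over genes. The mitosis genes are lowest in the control line on crizotinib, and line 2 lies above it for all 20.

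The largest single differences were not in division genes. SERPINB2, a serpin that inhibits urokinase-type plasminogen activator, stood at 9.34, 8.91 and 9.29 in line 2 and at 2.78, 3.04 and 3.45 in the control line on crizotinib. The 68.0-fold difference (log2 6.09, SE 0.29, adjusted p = 2.5e-10) was far larger than the spread in either group, and the control level was near the array median, so the fold rests on a level not shown to be above background. In DMSO the gene stood at 2.80, 2.31 and 3.44, and in line 1 at 4.06, 4.59 and 4.67. A window of its promoter is shown for the AP-1-type letters TGANTCA (capitals), which 7.76% of all promoters held on either strand.
SERPINB2 promoter, chr18:63887563-63887682, plus strand: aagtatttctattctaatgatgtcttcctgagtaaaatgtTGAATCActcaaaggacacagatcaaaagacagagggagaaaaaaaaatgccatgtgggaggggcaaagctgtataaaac

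KRTAP21-2, a keratin-associated protein gene of hair, rose to 6.22, 6.49 and 7.13 from 1.68, 1.80 and 1.77, a difference of 4.86 (SE 0.21, adjusted p = 7.2e-11). SCG2, encoding the secretory granule protein secretogranin II, stood at 7.03, 6.58 and 7.02 against 3.36, 2.97 and 2.23, a difference of 4.02 (SE 0.27). VAMP8, a SNARE of endosomes and secretory vesicles, stood at 7.46, 7.87 and 7.79 against 3.40, 3.67 and 3.98, a difference of 4.02 (SE 0.16, adjusted p = 2.4e-11). In none of the 3 did the groups overlap, and for VAMP8 line 1 was almost as high (7.16 ± 0.11). APCS, encoding serum amyloid P component, stood at 5.61, 5.96 and 6.03 against 1.84, 2.18 and 2.17, a difference of 3.80 (SE 0.18). The control levels of KRTAP21-2 and APCS lay below the array medians, and that of SCG2 lay near them. The sizes of these differences rest on levels not shown to be above background. ANKRD1, a target of YAP and TEAD that encodes an ankyrin repeat protein, stood at 9.53, 9.79 and 9.84 against 5.70, 6.67 and 5.56, a difference of 3.74 (SE 0.32, adjusted p = 2.5e-07). ANKRD1 was also high in line 1 (9.41 ± 0.15) and was lowest in DMSO (4.39 ± 0.25). The other members of the 12 largest rises were SKA1, SPC25, AURKB and GINS2, described above, and the noncoding transcripts LINC02454 (3.67, SE 0.32) and LOC105372338 (3.50, SE 0.21).

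The largest falls included transcription factors, cadherins and matrix genes. LMO3, a LIM-only transcription cofactor, stood at 4.44, 4.45 and 4.39 in line 2 and at 8.36, 8.21 and 8.50 in the control line on crizotinib. The difference of -3.93 (SE 0.08, adjusted p = 5.8e-15) was the largest fall, and the arrays within each group were close together. SFTA3, a surfactant-associated gene, stood at 4.06, 4.18 and 4.09 against 7.73, 7.39 and 7.54, a difference of -3.44 (SE 0.10). SOX2, a transcription factor of stem and foregut cells, stood at 4.73, 4.38 and 4.37 against 7.09, 6.93 and 7.41, a difference of -2.65 (SE 0.15, adjusted p = 1.7e-09). Its level in DMSO was 7.03 ± 0.17 and in line 1 4.67 ± 0.18, so both resistant lines were low and both control groups high.

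CDH3, encoding P-cadherin, stood at 5.14, 4.96 and 5.75 in line 2 against 8.46, 8.53 and 8.52, a difference of -3.22 (SE 0.17, adjusted p = 1.1e-09). A second probe set for the gene was also called, at -1.94. CDH11, a cadherin of mesenchymal cells, differed by -2.55 (SE 0.12), with 5.86, 6.26 and 5.80 against 8.70, 8.50 and 8.37. MMP13, encoding a collagenase, stood at 1.28, 1.51 and 1.41 in line 2 and at 5.25, 4.04 and 4.60 in the control line, a difference of -3.23 (SE 0.20). In this gene it was the control line on crizotinib that stood out, since the level in DMSO was 1.36 ± 0.03 and in line 1 1.69 ± 0.06. These levels and that of line 2 lay below the array medians. LAMA5, a laminin chain of basement membranes, differed by -2.87 (SE 0.17), FBLN5, a fibulin of elastic fibres, by -2.76 (SE 0.10), and ARRB1, encoding β-arrestin 1, by -2.61 (SE 0.11). REEP6, which shapes the endoplasmic reticulum, differed by -2.84 (SE 0.17), the noncoding LOC105370216 by -2.67 (SE 0.23), and IL1RL1, the receptor for interleukin 33, by -2.59 (SE 0.16). None of these groups overlapped.

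**Figure D2:**
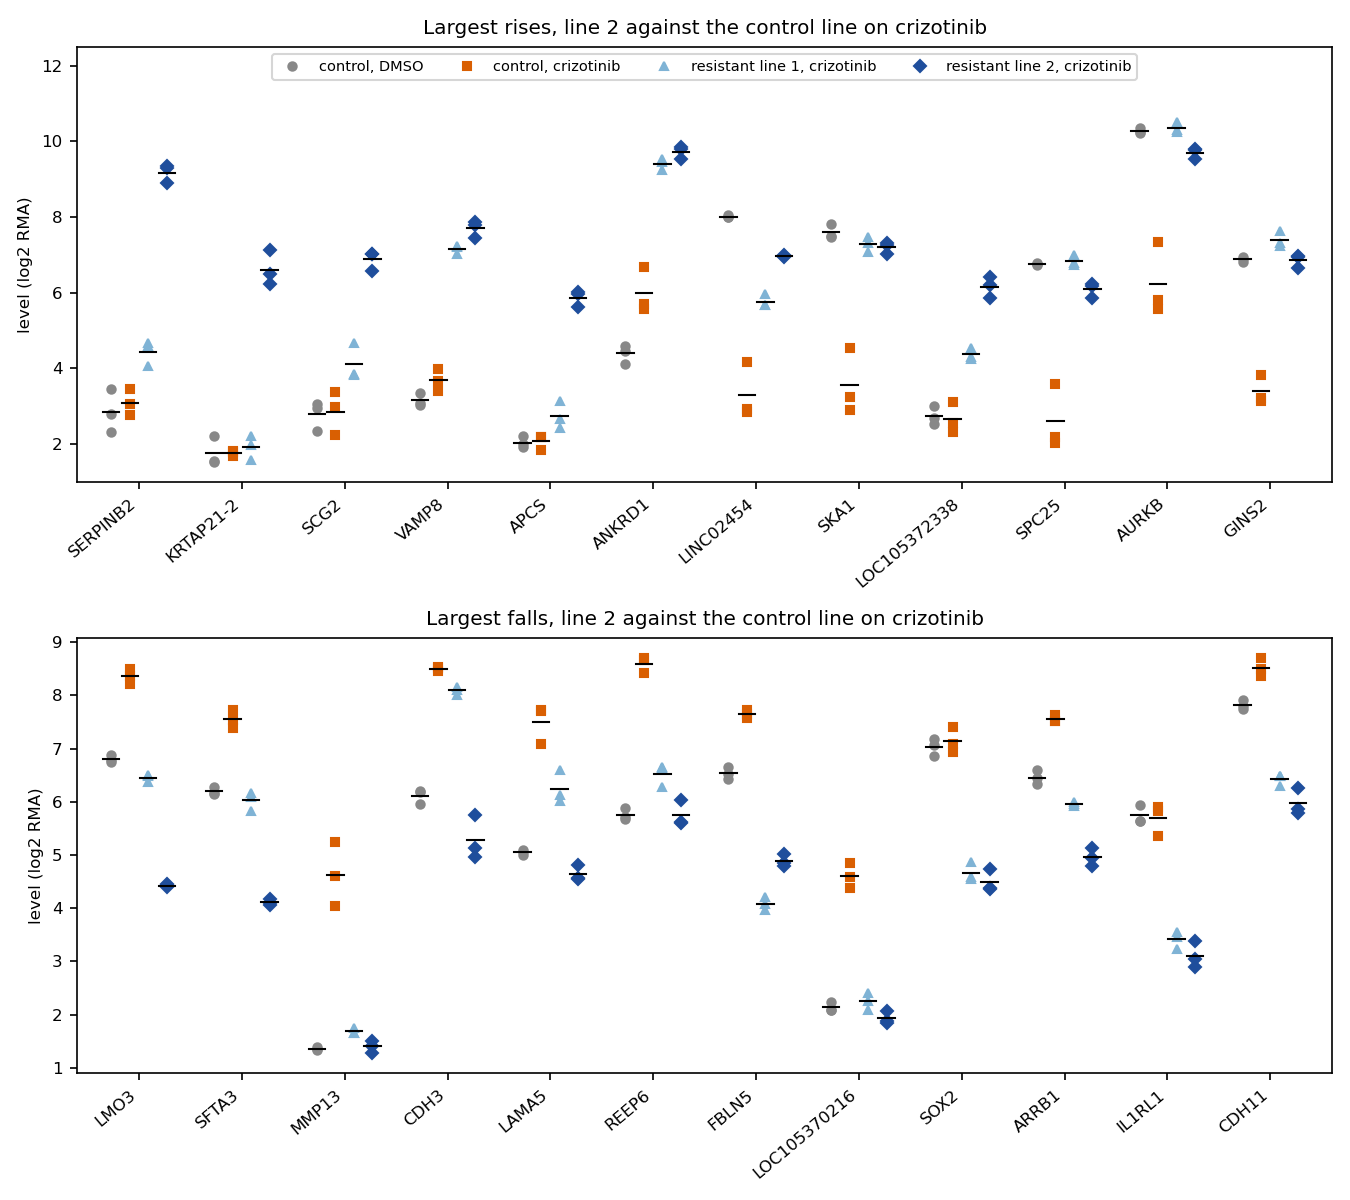
Log2 RMA level (y axis) of the 12 genes with the largest rise (upper panel) and the 12 with the largest fall (lower panel) in line 2 against the control line on crizotinib, with 1 point per array and black bars for means of 3 arrays. SERPINB2 stands at 8.91 to 9.34 in line 2 and at 2.78 to 3.45 in the control line on crizotinib. Among the groups shown, MMP13 is high only in the control line on crizotinib.

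The pathway below MET was examined from receptors to targets. Of 15 measured genes for MET adaptors, activators and partners, 1 was called higher and 3 lower (12.1% and 8.83% of named genes), with a median of -0.09. PTPN11, encoding the phosphatase SHP2, stood at 9.49, 9.63 and 9.64 against 8.96, 9.08 and 8.95 (0.60, SE 0.09). The lower ones were the adaptor SHC1 (-0.63, SE 0.07), the ubiquitin ligase CBL (-0.46, SE 0.08) and the hyaluronan receptor CD44 (-0.41, SE 0.08), whose second probe set was not called (-0.66). CD44 also lost its call with the 6 arrays fitted alone (adjusted p = 0.0865). GRB2 (0.19) and GAB2 (-0.02), which couple receptors to RAS and PI3K, were not called.

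Among 14 measured genes of RAS, RAF, MEK, ERK and their regulators, 5 were called higher and 1 lower (12.1% and 8.83% of named genes). The share called, 42.9%, stands beside 47.8% of the brightest 25% of named genes. HRAS stood at 8.44, 8.51 and 8.57 in line 2 against 7.72, 7.76 and 7.79, a difference of 0.75 (SE 0.09, adjusted p = 7.2e-06), with no overlap. MAP2K1, encoding MEK1, differed by 0.68 (SE 0.10), RASA2, a RAS GTPase-activating protein, by 0.65 (SE 0.17), RRAS2 by 0.50 and NRAS by 0.37. MAP2K2, encoding MEK2, was called lower (-0.91, SE 0.27, adjusted p = 0.028), but its arrays overlapped and 3 of the 6 leave-one-array-out fits lost the call. Fitting the 6 arrays alone gave 2 genes of the list called higher and none lower.

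Of 22 measured ERK feedback and target genes, 8 were called higher and 2 lower (12.1% and 8.83% of named genes), with a median of 0.28. DUSP10, a phosphatase that acts mainly on JNK and p38, had the largest difference, 2.55 (SE 0.09, adjusted p = 1.3e-11), at 9.46, 9.43 and 9.35 against 6.83, 6.96 and 6.79. It was above its level in DMSO as well (7.17 ± 0.05, difference 2.24). DUSP6, the phosphatase specific for ERK, stood at 2.79, 2.97 and 2.64 in line 2 and at 2.80, 2.57 and 2.89 in the control line on crizotinib. The groups overlapped, and the difference was 0.05 (SE 0.16, limma adjusted p = 0.91). Both were far below the DMSO level of 6.42 ± 0.40 (line 2 against DMSO -3.62, adjusted p = 7.7e-11). Both also lay near the array medians (2.84 to 2.91) and are not shown to be above background, so a difference between them could be missed.

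ETV5, an ETS factor induced by ERK, stood at 4.47, 4.29 and 4.20 against 2.30, 3.45 and 3.61, a difference of 1.19 (SE 0.24, adjusted p = 0.002; 0.0922 with the 6 arrays alone), and remained below DMSO (5.99 ± 0.12, -1.67). ETV4 stood at 2.58 ± 0.32 and 2.65 ± 0.03, also near the array medians, and was not called (limma adjusted p = 0.86). SPRED2, an inhibitor of RAS signalling, differed by 0.85 (SE 0.12), and FOSL1, a subunit of AP-1, by 0.77 (SE 0.17), with line 2 below DMSO (-1.27 and -1.74). PHLDA1 (0.55), EGR2 (0.48) and the cytokine gene LIF (0.47, SE 0.13) were the remaining members called higher besides CCND1. The members called lower were JUN (-0.74, SE 0.09), at 9.54, 9.47 and 9.35 against 10.21, 10.08 and 10.29, and the phosphatase gene DUSP7 (-0.56). Against DMSO, 12 of the 22 were called lower and 1 higher in line 2 (12.4% and 11.4% of named genes). In the control line on crizotinib 13 were called lower and 2 higher (13.2% and 10.0%). These comparisons share the DMSO arrays. With the 6 arrays fitted alone, the counts against the control line on crizotinib were 4 higher and 2 lower.

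**Figure D3:**
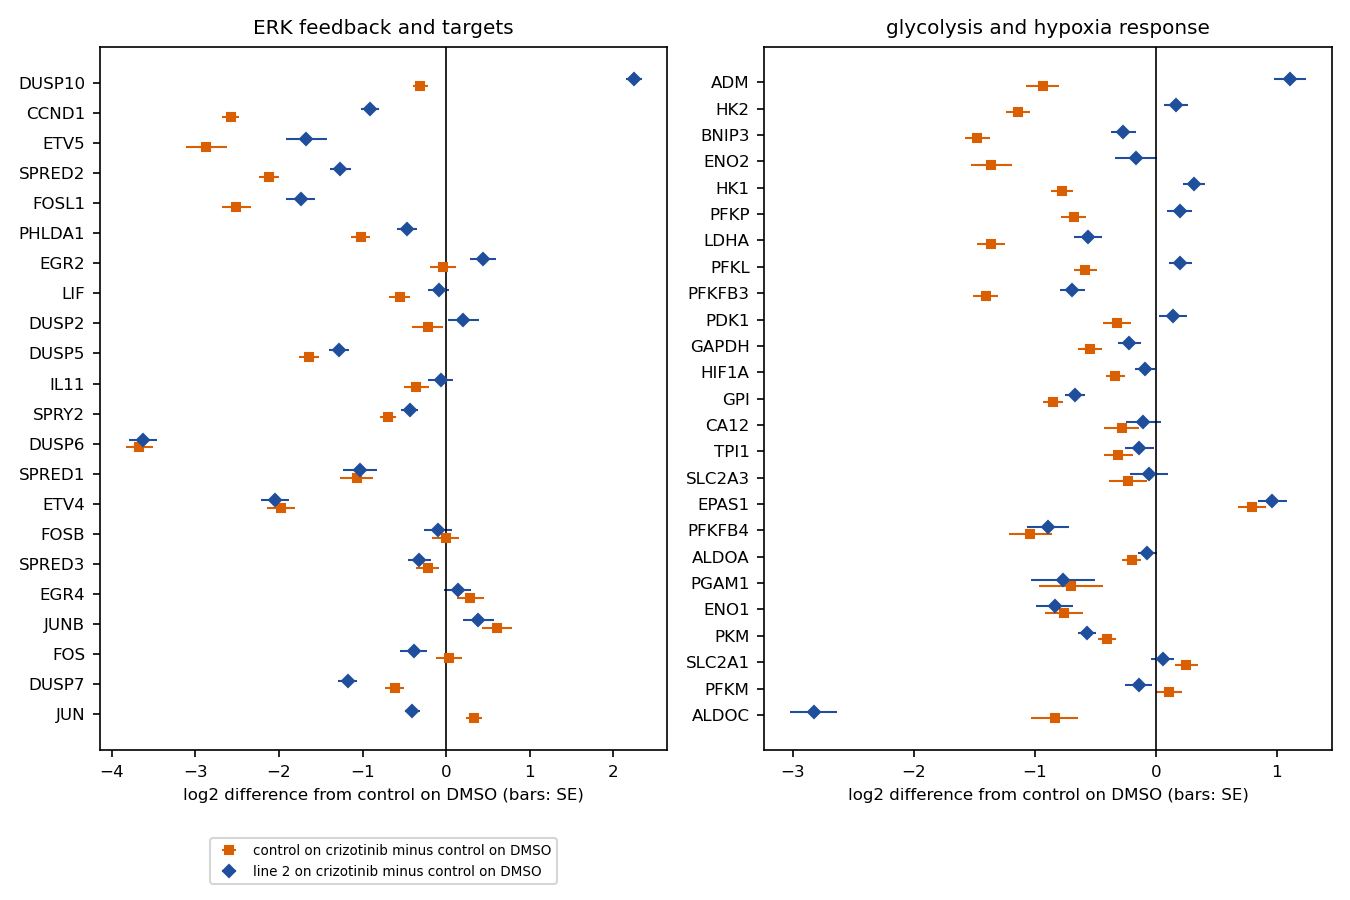
Log2 difference from the control line in DMSO, with its standard error from limma, for each ERK feedback and target gene and each glycolysis and hypoxia gene; orange squares are the control line on crizotinib and blue diamonds are line 2, and both use the same 3 DMSO arrays. DUSP6 lies at -3.67 and -3.62 in the control line and line 2, whereas DUSP10 lies at -0.31 and 2.24. The DUSP6 levels of both groups on crizotinib were near the array medians.

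Of 22 other receptor kinases, ligands and adaptors, 5 were called higher and 5 lower (12.1% and 8.83% of named genes). IGF1R, the receptor for insulin-like growth factor 1, stood at 4.93, 5.09 and 5.10 in line 2 and at 3.88, 3.66 and 3.24 in the control line, a difference of 1.45 (SE 0.13, adjusted p = 4e-07). It was also above DMSO (2.78 ± 0.06), and line 1 stood at 4.66 ± 0.05. IRS1, an adaptor of the same receptor, differed by 1.01 (SE 0.13), at 5.57, 5.61 and 5.87 against 4.57, 4.88 and 4.58, and IRS2 by 0.39. IGFBP5, a binding protein of insulin-like growth factors, was lower (-1.51, SE 0.25), a call lost with the 6 arrays alone (adjusted p = 0.0508).

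Of the TAM receptors and their ligands, AXL was bright in both groups and slightly lower in line 2, at 10.41, 10.38 and 10.27 against 10.76, 10.71 and 10.66 (-0.36, SE 0.08, adjusted p = 0.0037; 0.104 with the 6 arrays fitted alone). MERTK differed by -0.92 (SE 0.15), its ligand PROS1 by -0.66 (SE 0.09), and GAS6, the ligand shared by these receptors, by 0.96 (SE 0.12). The ephrin receptor EPHA2 was higher (1.15, SE 0.17) and EPHB2 lower (-1.46, SE 0.10). EPHB2 was low in line 1 too (4.93 ± 0.09 against 5.05 ± 0.11 in line 2), and EPHA2 in line 2 (6.24 ± 0.12) lay below DMSO (7.64 ± 0.01). FGFR2 stood near the array median, at 2.44 ± 0.11 and 2.50 ± 0.08, and was not called. In the ERBB list, 8 genes were measured, and ERRFI1, an inhibitor of EGFR, was called higher (0.77, SE 0.12) and LRIG3 lower (-0.91, SE 0.15). ERBB3 stood at 2.90, 3.11 and 3.27 against 2.77, 2.64 and 2.85, and its difference of 0.34 (SE 0.15) was not called (adjusted p = 0.17).

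Of 16 PI3K, AKT and FOXO genes, 3 were called higher and 6 lower (12.1% and 8.83% of named genes). SESN3, a FOXO target that restrains mTORC1, stood at 4.08, 3.97 and 3.92 against 5.64, 5.29 and 5.58, a difference of -1.51 (SE 0.14, adjusted p = 6.8e-07). The regulatory subunit PIK3R3 (-1.12, SE 0.09), the catalytic subunit PIK3CB (-0.97, SE 0.11), PIK3IP1 (-0.66), FOXO1 (-0.64) and TSC2 (-0.36) were also lower. BCL6 (0.72, SE 0.10) and KLF6 (0.50) were among those higher. For SESN3 and PIK3CB the control line on crizotinib was the high group, with DMSO at 4.26 ± 0.08 and 6.45 ± 0.08.

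Among 13 BCL2 family members, 3 were called higher and 1 lower. For each list of this paragraph the shares of all named genes were 12.1% and 8.83%. BCL2, an inhibitor of mitochondrial apoptosis, stood at 4.60, 4.47 and 4.44 in line 2 against 3.14, 2.86 and 2.60, a difference of 1.63 (SE 0.13, adjusted p = 8.4e-08), and at 4.58 ± 0.16 in DMSO. BCL2L1, encoding BCL-XL, was higher by 0.46 (SE 0.09; adjusted p = 0.0675 with the 6 arrays alone) and the pro-apoptotic BAX by 0.69 (SE 0.10), while BMF, a pro-apoptotic BH3-only gene, was lower (-1.07, SE 0.16). Among p53 targets, DDB2 (0.95, SE 0.14) and PLK3 (0.38) were called higher, and PHLDA3 (-1.25, SE 0.12), XPC (-1.10, SE 0.09) and MDM2 (-0.48) lower. Of 9 MYC, MAX and MXD network genes, MLXIP (0.55) and MLX (0.50) were called higher and MNT (-0.41) and MAX (-0.40) lower. MLXIP, MNT and MAX were not called with the 6 arrays fitted alone.

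Of 25 glycolysis and hypoxia genes, 12 were called higher and 1 lower, with a median of 0.18. The share called, 52%, stands beside 47.8% of the brightest 25% of named genes. A fit of the 6 arrays alone called 9 higher and 1 lower. Control replicate 2 was the highest control array for 20 of the 25, and without it the median was 0.31, with 12 higher and 1 lower. ADM, encoding adrenomedullin and a target of hypoxia-inducible factors, stood at 6.23, 6.19 and 6.49 against 3.99, 4.44 and 4.35, a 4.12-fold difference (log2 2.04, SE 0.13, adjusted p = 1.2e-08). Its level in line 2 was above those of the other groups compared, with DMSO at 5.19 ± 0.03 and line 1 at 4.34 ± 0.12. HK2, a hexokinase, differed by 1.31 (SE 0.10), and BNIP3, a mitophagy receptor induced by hypoxia, by 1.21 (SE 0.10). ENO2 (1.20, SE 0.17), HK1 (1.09), PFKP (0.87), LDHA (0.80, SE 0.12), PFKL (0.78) and PFKFB3 (0.71), enzymes of glycolysis and its regulation, were also higher. ALDOC, an aldolase, went the other way, at 4.58, 3.90 and 4.35 against 6.35, 6.37 and 6.07 (-1.99, SE 0.19). HIF1A itself differed by 0.25 (SE 0.08, adjusted p = 0.049), and 1 of 6 leave-one-array-out fits kept that call. In the control line 72 h of crizotinib had lowered 16 of the 25 and raised 1 (13.2% and 10.0% of named genes).

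Against line 1, 12 of the 25 glycolysis and hypoxia genes were higher in line 2 and 2 lower, read against 8.73% higher and 8.15% lower among named genes. HK2 was higher than in line 1 by 1.39 (SE 0.10) and BNIP3 by 1.21 (SE 0.10), and their levels in line 1 (6.46 ± 0.06 and 8.72 ± 0.02) were close to those of the treated control line (6.55 ± 0.14 and 8.73 ± 0.15). The respiratory chain was mixed, with 6 of 22 genes called higher and 3 lower in line 2 against the control line on crizotinib, but 2 and none with the 6 arrays fitted alone. The complex I genes NDUFS1 (1.00, SE 0.07) and NDUFB3 (0.92, SE 0.12) were higher and NDUFV1 was lower (-0.46, SE 0.10). ATP5F1C, of the ATP synthase, differed by 0.39 (SE 0.07). The calls of NDUFV1 and ATP5F1C were lost with the 6 arrays alone (adjusted p = 0.0844 and 0.0699).

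Genes of cholesterol and fatty acid synthesis were mostly lower. Of 18 measured, 10 were called lower and 1 higher, with a median of -0.52, against 8.83% of named genes called lower. FADS2, a fatty acid desaturase, stood at 4.39, 4.76 and 4.91 in line 2 against 5.90, 6.31 and 6.26, a difference of -1.47 (SE 0.15, adjusted p = 1.2e-06). DHCR7, of the last steps of cholesterol synthesis, stood at 7.34, 7.21 and 7.59 against 8.73, 8.91 and 8.80, a difference of -1.43 (SE 0.13). FADS1 (-0.88, SE 0.09), IDI1 (-0.87, SE 0.13) and SC5D (-0.76) were lower too. The exception was SREBF1, a transcription factor of this programme, which was higher (0.85). Line 2 was below DMSO for 11 of the 18 and below line 1 for 7, with 1 and none higher. Of all named genes, 12.4% were called lower than in DMSO and 8.15% lower than in line 1. A fit of the 6 arrays alone called 8 lower and 1 higher.

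Of 15 ribosome biogenesis genes, 8 were called higher and none lower, with a median of 0.27, against 12.1% of named genes called higher. The share called, 53.3%, stands beside 47.8% of the brightest 25% of named genes. WDR12, a factor of the large ribosomal subunit, stood at 5.73, 5.55 and 5.57 against 4.64, 4.61 and 4.59 (1.00, SE 0.09), and NCL, encoding nucleolin, differed by 0.80 (SE 0.09). NOP58 (0.74, SE 0.09) and UTP20 (0.71, SE 0.11), which act on ribosomal RNA precursors, were higher, and POLR1A, the largest RNA polymerase I subunit, by 0.64. When the arrays were quantile-normalized once more, 6 were called higher and 1 lower, and with the 6 arrays fitted alone 5 and none. Against line 1, 10 of the 15 were lower in line 2 and 1 higher, read against 8.15% lower and 8.73% higher among named genes.

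Lysosome and autophagy genes moved in both directions, with 3 of 21 called higher and 7 lower (12.1% and 8.83% of named genes). CTSF and CTSH, lysosomal proteases, were lower (-1.31, SE 0.17 and -0.82, SE 0.18), as was PSAP, the saposin precursor, at 11.87, 11.91 and 11.91 against 12.29, 12.36 and 12.38 (-0.45, SE 0.07). WIPI1 (0.73, SE 0.12) and MAP1LC3B (0.65, SE 0.14), which act in autophagosome formation, and the lysosomal channel gene MCOLN1 (0.37) were higher. Against DMSO, 14 of the 21 were higher in line 2 and 1 lower (11.4% and 12.4% of named genes). In the control line on crizotinib 15 were higher and 1 lower against DMSO (10.0% and 13.2%). WIPI1 rose from 7.25 ± 0.16 in DMSO to 8.61 ± 0.19 in the treated control line and 9.34 ± 0.10 in line 2. With the 6 arrays fitted alone, 2 were called higher and 3 lower against the control line on crizotinib.

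In the list of ATF4 and the unfolded protein response, 4 of 15 were called higher and 2 lower. For each list of this paragraph the shares of all named genes were 12.1% and 8.83%. SLC7A5, the large neutral amino acid transporter, stood at 8.92, 8.45 and 8.72 in line 2 against 5.76, 6.53 and 5.58, a difference of 2.73 (SE 0.20, adjusted p = 3.4e-08), and at 9.55 ± 0.12 in line 1. HERPUD1 (0.83, SE 0.09) and SDF2L1 (0.81), of the endoplasmic reticulum, and SHMT2 (0.63), of serine metabolism, were higher. ATF3 (-1.26, SE 0.16) and EDEM1 (-1.0, SE 0.13) were lower, and ATF4 itself was not called (0.05). Of 16 NRF2 targets and regulators, GCLM (0.76, SE 0.14) and AKR1C3 (0.41, SE 0.13) were called higher, and ABCC2, TKT (-0.70, SE 0.07) and PGD (-0.36) lower. AKR1C3 kept its call in 2 of 6 leave-one-array-out fits, and the 6 arrays alone gave 1 NRF2 gene higher and 1 lower. Of 7 ABC transporters, ABCA5 (0.54, SE 0.14) and ABCC4 (0.37, SE 0.10) were called higher and ABCC3 (-1.22, SE 0.19), ABCC2 (-0.87, SE 0.19) and ABCC1 (-0.34) lower. With the 6 arrays fitted alone, none of the 7 was called higher and 1 was called lower.

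Against the control line on crizotinib, matrix genes were more often lower than higher, 8 against 3 of 23 (8.83% and 12.1% of all named genes). Besides LAMA5 and FBLN5, LAMA3 stood at 6.41, 6.54 and 6.45 against 8.14, 7.78 and 7.72 (-1.41, SE 0.13), and COL1A1 (-0.85), LAMC1 (-0.71), COL6A1 (-0.58) and FBN1 (-0.57) were lower. COL8A1, a network-forming collagen, was higher, at 3.25, 4.22 and 3.86 against 2.11, 1.94 and 1.68 (1.87, SE 0.19), as were COL5A2 (0.61) and LAMB3 (0.45). The control level of COL8A1 lay below the array medians. Among 12 integrins, ITGB3 was higher, at 7.54, 7.57 and 7.12 against 5.54, 5.75 and 5.92 (1.67, SE 0.16, adjusted p = 8.5e-07), and ITGB5 lower (-0.93, SE 0.08). Both encode partners of the αV subunit, whose gene ITGAV was not called (0.07). Of the 23 matrix genes, 7 were higher and 4 lower in line 2 against DMSO (11.4% and 12.4% of named genes). In the treated control line 8 were higher and 4 lower against DMSO (10.0% and 13.2%). Against line 1, 6 were higher and 1 lower in line 2 (8.73% and 8.15%). With the 6 arrays fitted alone, 1 matrix gene was higher and 7 lower against the treated control line.

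Of 17 genes of the plasminogen system and metalloproteinases, SERPINB2 and ADAMTS1 (0.98, SE 0.12) were called higher, and MMP13, MMP3 (-0.99, SE 0.15) and PLAU, encoding urokinase (-0.59), lower. The mesenchymal list had 6 of 13 called higher and 2 lower (12.1% and 8.83% of named genes). These included CDH2, encoding N-cadherin (0.49, SE 0.09), POSTN (0.65, SE 0.14), ZEB2 (0.62), ZEB1 (0.29, SE 0.09) and FN1 (0.28, SE 0.09) with ITGB3, and on the lower side CDH11 and THY1 (-0.73, SE 0.22). The calls of ZEB1 and FN1 were lost in every leave-one-array-out fit, that of ZEB1 also after repeated quantile normalization and with a replicate block (adjusted p = 0.074 and 0.0533), and POSTN stood below the array medians in both groups. The 6 arrays alone gave 3 higher and 1 lower. Of 23 keratin and junction genes none was called higher and 4 were lower: CDH3, CLDN7 (-0.88, SE 0.13), KRT18 (-0.47, SE 0.12) and TJP1 (-0.42, SE 0.08). TJP1 (adjusted p = 0.0598) and KRT18 lost their calls with the 6 arrays alone, which left 2 lower. VIM stood at 6.65 ± 0.06 and 6.76 ± 0.08 and was not called (adjusted p = 0.45).

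Of 13 cytokine and chemokine genes, 4 were called higher and none lower (12.1% and 8.83% of named genes). CCL2, a monocyte chemoattractant, stood at 3.65, 4.65 and 4.67 in line 2 against 1.67, 1.89 and 1.40, a difference of 2.67 (SE 0.28, adjusted p = 1.9e-06), from a control level below the array medians. TNFSF10 (0.86, SE 0.18), CXCL16 (0.48, SE 0.12) and LIF were the others, and these 2 were not called with the 6 arrays alone. Of 26 interferon-stimulated genes, 4 were called higher and 5 lower (12.1% and 8.83% of named genes), and the counts depended on single arrays. Control replicate 2 was the highest control array for 24 of the 26. Without it 7 were called higher and 4 lower, without control replicate 1 or 3 there were 2 higher and 5 lower, and the 6 arrays alone gave 2 and 3. The antiviral sensors OAS3 (1.58, SE 0.20), OAS1 (0.82, SE 0.22), OAS2 (0.73) and IFIH1 (0.72) were the higher ones, and GBP2 (-1.20, SE 0.13), IFITM1 (-0.91, SE 0.12), IFI6 (-0.74), IFI44L (-0.68) and ISG20 (-0.68) the lower ones. The second GBP2 probe set, at -0.54, was not called. Against DMSO 13 of the 26 were higher and 4 lower in line 2 (11.4% and 12.4% of named genes). Of 5 antigen presentation genes, PDIA3 was called lower (-0.86, SE 0.22).

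Of 19 TGF-β and BMP pathway genes, 3 were called higher and 6 lower. For each list of this paragraph the shares of all named genes were 12.1% and 8.83%. ID3, a direct target of BMP signalling, stood at 3.86, 3.45 and 3.06 against 5.10, 4.63 and 5.04 (-1.46, SE 0.28), and SMAD6 (-0.90, SE 0.22; adjusted p = 0.101 with the 6 arrays alone), SMAD3 (-0.87, SE 0.10), TGFB3 (-0.82), LTBP2 (-0.57) and BMPR1A (-0.32) were lower. NOG, the BMP antagonist noggin, was higher (0.98, SE 0.12), with BMP2 (0.56) and BMPR2 (0.47). With the 6 arrays fitted alone, 2 were called higher and 2 lower. Of 15 YAP and TEAD targets and regulators, 5 were called higher and 3 lower. F3, encoding tissue factor, was higher by 1.49 (SE 0.18), with ANKRD1, TEAD1 (0.64), TEAD4 (0.41) and CRIM1 (0.28), and AMOTL2 (-0.96, SE 0.09), NUAK2 (-0.70, SE 0.16) and AXL were lower. After repeated quantile normalization the counts were 3 and 3, and with the 6 arrays alone 3 and 2. Of 17 Notch and WNT genes, the receptor FZD7 was called higher (1.61, SE 0.21), at 6.19, 6.45 and 6.54 against 4.99, 4.50 and 4.87, and TCF7L2 (-1.10, SE 0.09), FZD2 (-0.69, SE 0.11) and JAG2 (-0.55, SE 0.17) lower. JAG2 kept its call in 1 of 6 leave-one-array-out fits. Besides those already given, RASA2, IRS2, EGR2, LIF, TSC2, MLXIP, MNT, MDM2, PLK3, PGD, MCOLN1, ABCA5, ABCC4, COL5A2, LAMB3, THY1, OAS1, OAS2, IFI44L, PDIA3, BMP2, BMPR1A, LTBP2, TEAD4 and CRIM1 were among the genes that lost their calls in at least 1 of these fits. With the 6 arrays alone, RASA2, MAP2K2, LIF, AKR1C3, THY1, OAS1, PDIA3 and JAG2 were not called either.

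**Figure D4:**
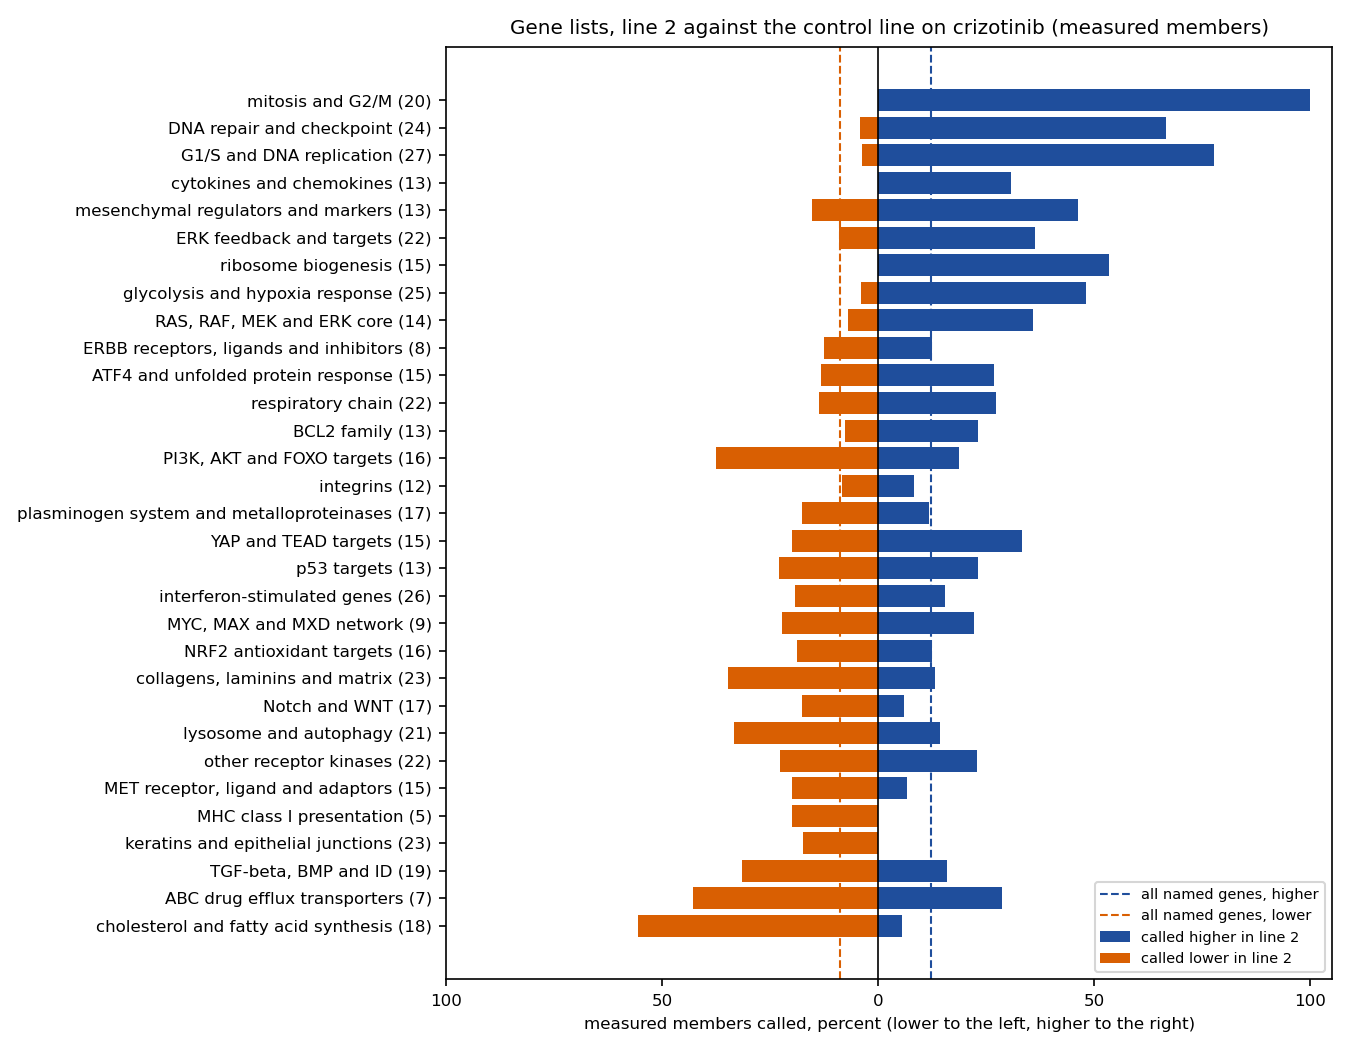
Share of the measured members of each of 31 gene lists called higher (blue, to the right) or lower (orange, to the left) in line 2 against the control line on crizotinib, in percent, ordered by the median difference. Dashed lines mark 12.1% and 8.83%, the shares of all named genes called higher and lower, and the mitosis list reaches 20 of 20 higher.

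The named genes also included those that crizotinib had moved most in the control line, split by whether line 2 differed from the treated control line. The groups share arrays, so the values are set side by side. LINC02454 stood at 8.01 ± 0.03 in DMSO, 3.30 ± 0.74 in the treated control line and 6.97 ± 0.02 in line 2. TK1 stood at 8.68 ± 0.09, 4.41 ± 0.95 and 7.80 ± 0.30 in the same order. In both genes line 2 lay between the treated control line and DMSO, nearer to DMSO. Among genes raised by the drug, PSG1, a pregnancy-specific glycoprotein gene, stood at 5.35 ± 0.23, 8.53 ± 0.07 and 6.27 ± 0.53, and CA11 at 4.68 ± 0.46, 7.66 ± 0.37 and 5.51 ± 0.12. For PSG1 and CA11, too, line 2 lay nearer to DMSO. ABI3BP, a matrix gene, lay nearer to the treated control line, at 3.99 ± 0.33, 6.58 ± 0.10 and 5.66 ± 0.04.

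Other genes moved by crizotinib in the control line were not called between line 2 and the treated control line. MMP1, encoding interstitial collagenase and a target of ERK and AP-1, stood at 3.23, 3.39 and 3.39 in line 2, at 3.11, 3.13 and 3.34 in the treated control line and at 8.17 ± 0.07 in DMSO. Its difference between line 2 and the treated control line was 0.14 (SE 0.23, limma adjusted p = 0.78), while line 2 against DMSO gave -4.83 (adjusted p = 1e-10). MMP1 in both groups on crizotinib lay little above the array medians, where a difference could be missed. SEMA7A, a membrane-anchored semaphorin, stood at 5.83 ± 0.11 and 5.99 ± 0.21 against 8.99 ± 0.09 in DMSO, and TACR1, the receptor for substance P, at 3.37 ± 0.31 and 3.81 ± 0.33 against 6.37 ± 0.14. SPRR2C and EFR3B were the other falls of this kind, with -0.62 (SE 0.39) and -0.69 (SE 0.28) between line 2 and the treated control line, and EFR3B was called when line 2 replicate 1 was left out (adjusted p = 0.0298). Of genes raised by the drug, PSG5 stood at 9.19 ± 0.08 and 9.31 ± 0.17 against 4.76 ± 0.30, and EVI2A at 6.80 ± 0.06 and 6.87 ± 0.16 against 4.29 ± 0.16. GAA, the lysosomal acid α-glucosidase, stood at 6.74 ± 0.07 and 6.92 ± 0.33 against 4.61 ± 0.21. PSG9 (-0.49, SE 0.19), TCP11L2 (0.27, SE 0.13) and CEMIP (-0.59, SE 0.21), which degrades hyaluronan, were not called between line 2 and the treated control line either. CEMIP was called in 4 alternative fits, among them that without line 2 replicate 3 (adjusted p = 0.00926). A difference that was not called does not show that the levels were equal.

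Another set of genes differed between line 2 and the treated control line and was not called for crizotinib against DMSO in the control line. FLG, encoding the epidermal protein filaggrin, stood at 7.02, 7.21 and 6.84 in line 2 and at 3.57, 3.81 and 3.41 in the treated control line (3.42, SE 0.13, adjusted p = 2.4e-11), with DMSO at 3.77 ± 0.05. IL18R1, a subunit of the interleukin 18 receptor, stood at 3.20, 3.02 and 2.60 against 5.24, 5.10 and 5.09 (-2.20, SE 0.16), and EPN2, an endocytic adaptor, at 5.50, 5.40 and 5.37 against 7.50, 7.23 and 7.45 (-1.97, SE 0.10). TNNT1, a troponin of slow muscle, and STON2, an endocytic protein, differed by -1.91 (SE 0.12) and -1.87 (SE 0.10). SERPINB2, KRTAP21-2, SCG2, APCS and LOC105372338 on the rising side, and SOX2 and IL1RL1 on the falling side, belong to the same set.

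Line 2 was last compared with line 1, selected separately with the same drug. Of all probe sets 4019 were called, 1920 higher and 2099 lower in line 2 (2074 and 1834 after repeated quantile normalization), and among named genes 8.73% were higher and 8.15% lower. SERPINB2 was higher in line 2 by 4.74 (SE 0.29, adjusted p = 9.1e-09) and KRTAP21-2 by 4.69 (SE 0.21), where line 1 stood at 1.98, 1.58 and 2.22. PLEKHA7, a protein of adherens junctions, stood at 5.88, 6.18 and 5.82 in line 2 and exceeded line 1 by 3.07 (SE 0.13). The means of line 1 and of the control line on crizotinib and in DMSO were 2.85 to 3.01. ANKRD30B exceeded line 1 by 3.44 (SE 0.20), KRTAP1-5 by 3.22 (SE 0.37) and APCS by 3.13 (SE 0.18).

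CDH3 stood at 8.16, 8.11 and 8.02 in line 1, so that the difference of line 2 from it was -2.82 (SE 0.17, adjusted p = 1.2e-08). CD320, the receptor that takes up transcobalamin-bound vitamin B12, stood at 5.01, 4.93 and 4.96 in line 2 and at 7.52 ± 0.33 in line 1 (-2.55, SE 0.14). PLBD1 (-2.09, SE 0.13), LMO3 (-2.03, SE 0.08), the semaphorin receptor PLXNA2 (-1.95, SE 0.11) and SFTA3 (-1.92, SE 0.10) were the other large falls. For LMO3 and SFTA3 line 1 lay between line 2 and the treated control line, and for PLXNA2 and PLBD1 it lay above both. SOX2 (-0.17, SE 0.15, adjusted p = 0.59), ANKRD1 (0.32, SE 0.32), SKA1 (-0.08, SE 0.32) and CCND1 (0.07, SE 0.10) were not called between the resistant lines. DUSP10, in contrast, was higher in line 2 than in line 1 (7.93 ± 0.04) by 1.49 (SE 0.09).

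**Figure D5:**
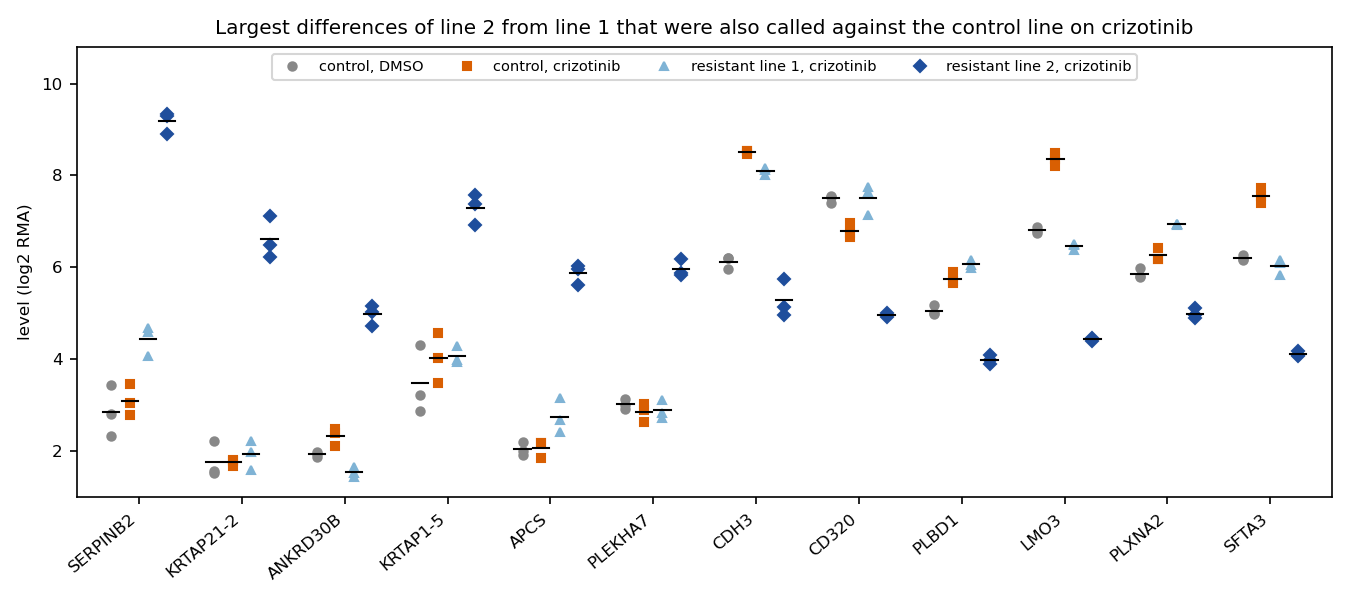
Log2 RMA level (y axis) of the 12 genes with the largest differences of line 2 from line 1 among those also called against the control line on crizotinib, with 1 point per array and black bars for means of 3 arrays. Among the groups shown, KRTAP21-2 and PLEKHA7 are high only in line 2, and CD320 is lowest in line 2, at 4.93 to 5.01.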

How the data were processed

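The deposited values are log2 expression levels per probe set that the authors made by RMA, per the submitters' processing notes; no source used here gives the version of RMA or the array's probe annotation. The log2 table of the series holds 34236 rows; 1 row with a missing value was left out, and 34235 probe sets were tested. Symbols came from a second deposited table, joined by identical values over 21 columns (tolerance 1e-08). Those 21 columns match no sample label, so they served only as a key without order and no value of theirs is reported. All 18909 complete symbol rows matched. In all, 18905 probe sets (55.2%) had 1 symbol and none had several, 14 whose symbol had turned into a date stayed unnamed, and 18260 genes were named. Where a gene had several probe sets (478 genes), the one with the highest mean over all arrays stood for it.

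limma 3.58.1 (R 4.3.3) was fitted with a mean for each of 7 groups (14 residual degrees of freedom, moderated by eBayes), and p-values were Benjamini-Hochberg adjusted over all probe sets. A call is an adjusted p below 0.05. The groups compared were taken from the sample titles. The number of arrays limits the precision. Array correlations were 0.981 to 0.984 within line 2, 0.977 to 0.979 within the control line on crizotinib and 0.962 to 0.968 between them. The fit was tested on simulated data with 200 of 34235 probe sets changed for this comparison. Of the changed ones 41.8% were recovered at 1.5-fold, 74.6% at 2-fold and 95.5% at 4-fold, and 4 unchanged ones were called. Far fewer probe sets were changed there than the 4970 called in the data, and the simulated noise was normal. These rates therefore do not give the recovery in the data, which was not tested.

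Genes were named by a rule: the 12 largest called rises and falls; the 6 per direction with the largest differences from line 1, with the largest changes under crizotinib in the control line that line 2 did or did not share, and with no change there; up to 4 per list by size; and 9 key genes. Members and lists were chosen with earlier results of these data known, and other list members and neighbours named in the text were chosen after their values were seen. Some named genes are not reported here. Promoter sequences are RefSeq's (GRCh38.p14). Alternatives were repeated quantile normalization, a median shift per array, the compared groups alone, a replicate block, a filter on dim probe sets, a trended robust prior, 1 probe set per gene, a minimum fold and each array left out.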

Additional observations from a re-analysis of the deposited data

Results flagged for a closer look

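The contrast with the control line on crizotinib could be formed for both crizotinib-resistant lines, and the difference between the lines was tested directly as line 2 minus line 1 in limma. At an adjusted p below 0.05, 4019 probe sets differed. The largest log2 differences among genes also called against the control line were 4.74 for SERPINB2, 4.69 for KRTAP21-2, 3.44 for ANKRD30B, 3.22 for KRTAP1-5, 3.13 for APCS and 3.07 for PLEKHA7 on the higher side. On the lower side they were -2.82 for CDH3, -2.55 for CD320, -2.09 for PLBD1, -2.03 for LMO3, -1.95 for PLXNA2 and -1.92 for SFTA3. For each of the 12 genes the 3 arrays of line 2 lay outside the range of the 3 arrays of line 1. The genes were chosen as the largest called differences between the lines, so this separation adds no support. Each line is 1 selected population, and whether the differences follow from the selection or from chance divergence of the populations was not tested.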

How the results depend on the processing

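With only the compared groups in the fit, 2634 probe sets were called between line 2 and the control line on crizotinib (4970 with all groups), 3709 for acute crizotinib in the control line (5601) 1977 between the resistant lines (4019) and 4824 for line 2 against DMSO (5877); the cause was not tested. Requiring a fold of at least 2 left 1124, 1353 and 646, and 1497 of 5877 for line 2 against DMSO. Leaving out 1 array gave 4185 to 4644, 4600 to 5068, 3159 to 3480 and, against DMSO, 4839 to 5346. A fit with the replicate number as a block gave 4938 calls for line 2 against the treated control line. The labels name no pairing of same-numbered arrays, and deviations of such arrays of those groups from the group means correlated at 0.00856 to 0.0186. Whether same-numbered arrays were processed together was not tested. The share of calls higher in line 2 than in the treated control line was 54.5%, 51.6% after repeated quantile normalization and 57.8% after a median shift. Repeated quantile normalization moved it from 44.1% to 53.9% for acute crizotinib, from 44.8% to 52.5% for line 2 against DMSO and from 47.8% to 53.1% for line 2 against line 1. Of 166 named genes, 149 were called, 28 lost the call in at least 1 of 13 settings, 2 (CEMIP and EFR3B) gained it in at least 1, and none reversed. Without detection values, differences from levels near the array medians are limited by signal over background.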

Other observations

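The genes in this section were chosen after their values were seen. The rise of KRTAP21-2 was shared by KRTAP7-1, a neighbour on chromosome 21, at 5.19, 4.44 and 5.21 in line 2 against 2.57, 2.59 and 2.39 in the control line on crizotinib (2.43, SE 0.23, limma adjusted p = 5.7e-07). On chromosome 17, where keratin-associated protein and hair keratin genes lie together, KRTAP1-1 differed by 3.28 (SE 0.19), KRTAP2-3 by 3.05 (SE 0.35), KRT33B by 2.17 (SE 0.22) and KRTAP2-4 by 1.12 (SE 0.18). KRTAP1-3 (0.04, SE 0.20) and KRT33A (-0.22, SE 0.20) were not called. Members of these families are alike in sequence, and whether probes read more than 1 member was not tested.

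Other serpin genes of chromosome 18 were higher with SERPINB2 but by less, SERPINB10 by 1.23 (SE 0.15), SERPINB8 by 1.17 (SE 0.18) and SERPINB7 by 0.70 (SE 0.15). In the interleukin 1 receptor family on chromosome 2, IL1RL1 and IL18R1 were lower in line 2 (-2.59 and -2.20), while IL1R1, the signalling receptor for interleukin 1, and IL1RL2 were higher (1.63, SE 0.22 and 0.99, SE 0.21). IL1R2 (0.04) and IL18RAP (-0.08) were not called. IL1RAP, the shared accessory subunit on chromosome 3, was higher by 1.33 (SE 0.16).

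The pregnancy-specific glycoprotein genes of chromosome 19 differed among themselves. PSG1 and PSG3 were lower in line 2 than in the treated control line (-2.25 and -0.62), PSG2 and PSG4 were higher (1.27 and 0.55), and PSG5 and PSG9 were not called. NKX2-1, the foregut transcription factor gene on chromosome 14 with SFTA3, stood at 4.32, 4.48 and 3.93 in line 2 against 5.66, 5.44 and 5.92 (-1.43, SE 0.17, adjusted p = 8e-06). MIR210HG, the host transcript of a hypoxia-responsive microRNA, stood at 7.34, 7.68 and 7.65 against 5.90, 6.06 and 5.78 (1.64, SE 0.16), with 6.11 ± 0.40 in line 1. The microRNA itself was not measured by that probe set.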
